A study of Mus musculus with 11 samples.

Results

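Red blood cell transcripts were followed in 7 genes on arrays of mouse microglia, the resident immune cells of the brain. They comprised the embryonic globins Hba-x, Hbb-y and Hbb-bh1, the adult globins Hba-a2 and Hbb-bt, the haem synthesis enzyme Alas2 and the red cell membrane protein Slc4a1. The 7 genes were selected on measured values, namely their log2 signals in the 4 groups of the series, and are therefore described with no test. They were found on the array through the RefSeq accession that each probe carries. Each of the 7 had 1 probe, out of 23283 genes with a matched probe. All 7 passed the filter on dim probes that kept 19565 genes, which asked for a signal well above background throughout 1 or more groups. Hbb-bt and Alas2 passed it through the sorted groups alone, where they were bright.

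The series held 11 single-colour Agilent arrays of C57BL/6N microglia in 4 groups. A_FACS (2 arrays) were microglia of adult female mice (12 to 24 weeks per the study's methods), perfused through the heart and sorted as CX3CR1 high cells with intermediate CD45. NB_FACS (3 arrays) were sorted in the same way from pups of both sexes at 1 to 3 days after birth, which were decapitated and are not described as perfused. NB_Control and NB_Stim (3 arrays each) were newborn microglia shaken off mixed glial flasks that had received L-929 conditioned medium, with harvests on days 18, 26 and 34, and then kept for 1 day in serum-containing DMEM/F12. NB_Stim was given 3 human cytokines in that time, TGF-β1, IL-34 and CX3CL1, with 100 ng/mL of each. No source ties an array to single animals, so the spread covers these arrays and may be partly technical. Between A_FACS and NB_FACS age, sex and perfusion cannot be told apart, and between NB_FACS and the cultured groups the isolation method and the time in culture cannot be told apart.

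Haemoglobin carries oxygen as a tetramer of α-like and β-like globin chains, each holding a haem. In the mouse the α-like genes lie together on chromosome 11 and the β-like genes on chromosome 7, and both clusters switch during development: primitive red cells of the yolk sac use Hba-x (ζ-globin), Hbb-y (εy-globin) and Hbb-bh1 (βh1-globin), whereas definitive red cells of the fetal liver and bone marrow use Hba-a1, Hba-a2 and the adult β-globins. Alas2 is the erythroid form of the first enzyme of haem synthesis, and Slc4a1 is band 3, the anion exchanger of the red cell membrane. Macrophages, the family of cells that microglia belong to, take up haemoglobin and break down haem.

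Stretches of 4 deposited probes are given first, since 2 of them are nearly the same. They are the first 30 bases of the Hba-x and Hbb-y probes and bases 10 to 39 of the probes of Hbb-bt and of Hbb-b2, a β-globin gene that is not among the 7. Capitals mark the base at which the Hbb-bt and Hbb-b2 probes differ.
Hba-x probe: gatccggtcaacttcaagctcctgtcccac
Hbb-y probe: cactgcgctgtcccacaagtaccactgagc
Hbb-bt probe: gagaaaaactgtcaaTtgtggggaaatgat
Hbb-b2 probe: gagaaaaactgtcaaGtgtggggaaatgat

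Over their 49 aligned bases the Hbb-bt and Hbb-b2 probes shared 48, with the single substitution T25G (Hbb-bt base first, position counted from the 5′ end of the probe). The same RNA may therefore have reached both probes, and their values are not independent. The 45-base Hba-x probe shared no run of 16 bases, on either strand, with any other probe of the array, and the same held for Hba-a2, Hbb-bh1, Alas2 and Slc4a1. The Hbb-y probe shared such a run with 1 probe that has no gene name here. These comparisons are between probes and do not show which RNA a probe binds. Binding of RNA of other globins, such as Hba-a1 RNA to the Hba-x and Hba-a2 probes, was not tested. Hba-a1 and Hbb-bs had no matched probe and were not analysed here.

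The stretch just before the start site is shown for the 5 of the 7 genes with an entry in the RefSeq promoter table (GRCm38.p6), because 4 of them (Hba-x, Hba-a2, Hbb-bt and Alas2) followed the same order of groups and Hbb-y did not. Each line holds the 120 bases upstream of the start, 5′ to 3′ on the gene's strand, and capitals mark GATA, CACCC and CCAAT or their reverse complements TATC, GGGTG and ATTGG. Hbb-bh1 and Slc4a1 had no entry.
Hba-x promoter, chr11:32276480-32276599, plus strand: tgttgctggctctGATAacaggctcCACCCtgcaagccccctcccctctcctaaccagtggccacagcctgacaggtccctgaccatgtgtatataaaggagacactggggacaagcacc
Hbb-y promoter, chr7:103853208-103853327, minus strand: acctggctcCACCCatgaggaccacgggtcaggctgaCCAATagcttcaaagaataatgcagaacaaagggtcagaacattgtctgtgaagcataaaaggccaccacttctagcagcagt
Hba-a2 promoter, chr11:32296372-32296491, plus strand: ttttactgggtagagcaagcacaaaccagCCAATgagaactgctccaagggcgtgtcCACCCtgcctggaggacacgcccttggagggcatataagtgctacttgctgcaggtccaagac
Hbb-bt promoter, chr7:103813924-103814043, minus strand: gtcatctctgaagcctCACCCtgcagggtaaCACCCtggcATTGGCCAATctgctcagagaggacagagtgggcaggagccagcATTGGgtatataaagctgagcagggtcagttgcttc
Alas2 promoter, chrX:150547297-150547416, plus strand: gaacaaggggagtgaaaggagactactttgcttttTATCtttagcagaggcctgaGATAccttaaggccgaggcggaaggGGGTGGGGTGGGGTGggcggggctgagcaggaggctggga

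CACCC on either strand stood in all 5 windows, and in 31.7% of the 32851 promoter windows of this length in the table. GATA stood in the Hba-x window (1 match) and the Alas2 window (2 matches), against 29.5% of all windows, and not in those of Hbb-y, Hba-a2 and Hbb-bt. CCAAT stood in the windows of Hbb-y (1 match), Hba-a2 (1 match) and Hbb-bt (3 matches), against 21.3% of all windows, and not in those of Hba-x and Alas2. The 3 CACCC matches of Alas2 lie side by side on the other strand, and no match overlaps a match of another motif. Hba-x and Hbb-y, whose signals differed in pattern, thus shared CACCC and differed in the other 2 motifs. Hba-a2 and Hbb-bt, which followed the order of groups of Hba-x, held the same motifs as Hbb-y. These matches describe letters in a window and not binding.

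The share of probes well above background ran from 66.8% to 80.5% over the arrays, whose small number limits the precision. Signals are on the log2 scale after quantile normalisation, in arbitrary units, and a ± value is the SD between arrays of 1 group. A signal depends on its probe, so levels are compared between groups for 1 gene and not between genes. In bulk samples like these, fewer cells of a type and less RNA per cell cannot be told apart. Slide 2 carried replicate 3 of NB_FACS, NB_Control and NB_Stim, slide 1 carried the remaining 8 arrays, and values within each slide are given where they bear on a difference.

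Hba-x, the embryonic α-like globin, had its highest signals in sorted newborn cells. The 3 NB_FACS arrays read 13.98, 13.31 and 14.70, the 2 A_FACS arrays 8.49 and 10.08, the 3 NB_Control arrays 5.26, 5.12 and 5.24, and the 3 NB_Stim arrays 5.33, 5.29 and 5.71. The 4 groups did not overlap, and the probe was well above background on all 11 arrays. Relative to NB_FACS (14.00 ± 0.70), Hba-x was lower by 8.79 in NB_Control (5.20 ± 0.072), which is 444-fold, and by 8.56 in NB_Stim (5.44 ± 0.24), which is 376-fold. A_FACS (9.29 ± 1.12) was 26.2-fold lower than NB_FACS, a log2 difference of -4.71, and 16.9-fold higher than NB_Control. The log2 difference between A_FACS and NB_FACS was -3.93 without A_FACS replicate 1 and -5.52 without A_FACS replicate 2. Between NB_Control and NB_FACS it was -8.46 within slide 1 and -9.47 within slide 2, and -7.37 with normexp background correction.

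The embryonic β-like globins showed no such pattern. Hbb-y read 6.63, 6.79 and 7.26 in NB_FACS, 6.60 and 6.77 in A_FACS, 7.10, 7.02 and 6.74 in NB_Control and 7.09, 7.26 and 6.52 in NB_Stim, well above background on every array. All 4 groups overlapped, with means of 6.69 ± 0.12 in A_FACS, 6.89 ± 0.32 in NB_FACS, 6.95 ± 0.19 in NB_Control and 6.96 ± 0.39 in NB_Stim. Its log2 difference between NB_Control and NB_FACS was 0.06 over both slides, 0.35 within slide 1 and -0.52 within slide 2. Hbb-bh1 was dim: 3.67, 4.30 and 4.81 in NB_FACS, 4.57 and 4.25 in A_FACS, 3.85, 3.55 and 4.91 in NB_Control and 4.32, 4.57 and 4.93 in NB_Stim. This probe was well above background on both A_FACS arrays, 2 NB_FACS arrays, 1 NB_Control array and all 3 NB_Stim arrays, and its groups overlapped in every comparison. For neither gene did the sorted and cultured groups, or the adult and newborn groups, stand apart without overlap. The log2 difference of Hbb-y between A_FACS and NB_Control was -0.27, larger than its SD of 0.16 within groups.

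Hba-a2, an adult α-globin gene, had its highest signals in sorted newborn cells. It read 16.83, 16.91 and 17.11 in NB_FACS, 12.87 and 14.46 in A_FACS, 3.04, 4.73 and 5.26 in NB_Control and 4.81, 4.61 and 5.32 in NB_Stim. The sorted groups stood apart from each other and from both cultured groups, and the cultured groups overlapped. Relative to NB_FACS (16.95 ± 0.14) the log2 difference was -12.61 in NB_Control (4.34 ± 1.16), -12.03 in NB_Stim (4.91 ± 0.37) and -3.29 in A_FACS (13.66 ± 1.12). These differences are 6238-fold, 4196-fold and 9.75-fold. Hba-a2 was well above background on 2 of 3 NB_Control arrays, and with normexp background correction the log2 differences of NB_Control and NB_Stim were -10.38 and -10.26. The adult difference was -2.46 without A_FACS replicate 1 and -4.08 without A_FACS replicate 2. No Hba-a2 spot was flagged as saturated, but its probe ranked 6, 5 and 2 of 59899 by signal on the NB_FACS arrays. Whether a ceiling near the top of the scale made its differences smaller was not tested.

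Hbb-bt, an adult β-globin gene, read 13.93, 13.71 and 14.97 in NB_FACS and 8.92 and 10.44 in A_FACS. The 6 cultured arrays read 1.23, 2.15 and 1.23 in NB_Control and 1.21, 1.26 and 1.33 in NB_Stim, not well above background on any of them. NB_FACS (14.20 ± 0.68) was at least 1845-fold higher than NB_Control and at least 1755-fold higher than NB_Stim, and A_FACS (9.68 ± 1.07) was at least 80.1-fold higher than NB_Control. These bounds set each cultured array at the lowest signal that was well above background on it. A_FACS was 23.0-fold lower than NB_FACS, a log2 difference of -4.53, which was -3.78 without A_FACS replicate 1 and -5.30 without A_FACS replicate 2. The bounds hold for this normalisation: with normexp background correction, which adds an offset of 50 to every signal, the log2 difference between NB_Control and NB_FACS was -8.33 in place of -12.67.

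Alas2, which makes the first intermediate of haem in red cell precursors, followed the adult globins. It read 11.31, 10.81 and 12.26 in NB_FACS, 6.05 and 7.66 in A_FACS, 3.66, 3.07 and 2.85 in NB_Control and 2.83, 2.19 and 3.43 in NB_Stim. Of the 6 cultured arrays NB_Stim replicate 3 was the single one on which it was well above background. NB_FACS (11.46 ± 0.74) was at least 262-fold higher than NB_Control and 24.3-fold higher than A_FACS (6.86 ± 1.14). The log2 difference of A_FACS from NB_FACS was -4.60, and -3.81 and -5.44 without A_FACS replicate 1 and replicate 2. NB_Stim (2.82 ± 0.62) lay 8.64 below NB_FACS on the log2 scale, with 2 of its 3 values not well above background. With normexp background correction the log2 differences of NB_Control and NB_Stim from NB_FACS were -5.48 and -5.53, smaller than the bound.

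Slc4a1 did not follow Alas2 and the globins. Its probe read 6.73, 6.56 and 6.90 in NB_FACS, 7.15 and 7.31 in A_FACS, 6.59, 6.54 and 6.76 in NB_Control and 6.50, 6.35 and 7.28 in NB_Stim, and was well above background on all 11 arrays. NB_FACS (6.73 ± 0.17) overlapped both NB_Control (6.63 ± 0.11) and NB_Stim (6.71 ± 0.50). A_FACS (7.23 ± 0.11) was higher than NB_FACS by 0.50 with no overlap, the opposite direction to Hba-x, Hba-a2, Hbb-bt and Alas2. The log2 difference was 0.58 without A_FACS replicate 1 and 0.42 without A_FACS replicate 2.

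Taking the 7 genes together, 4 (Hba-x, Hba-a2, Hbb-bt and Alas2) were lower in NB_Control than in NB_FACS with no overlap, where 20.2% of all genes tested were lower without overlap. The same 4 were lower in NB_Stim without overlap, against 20.0% of all genes, and in A_FACS, against 26.8% of all genes. Slc4a1 was higher in A_FACS without overlap, as were 24.5% of all genes. Between the cultured groups 1 of the 7, Hba-x, was higher in NB_Stim without overlap, by 0.24, against 10.1% of all genes. Since the rule for the 7 genes used these comparisons, nothing is read from the counts. The comparisons share the NB_FACS arrays.

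**Figure D1:**
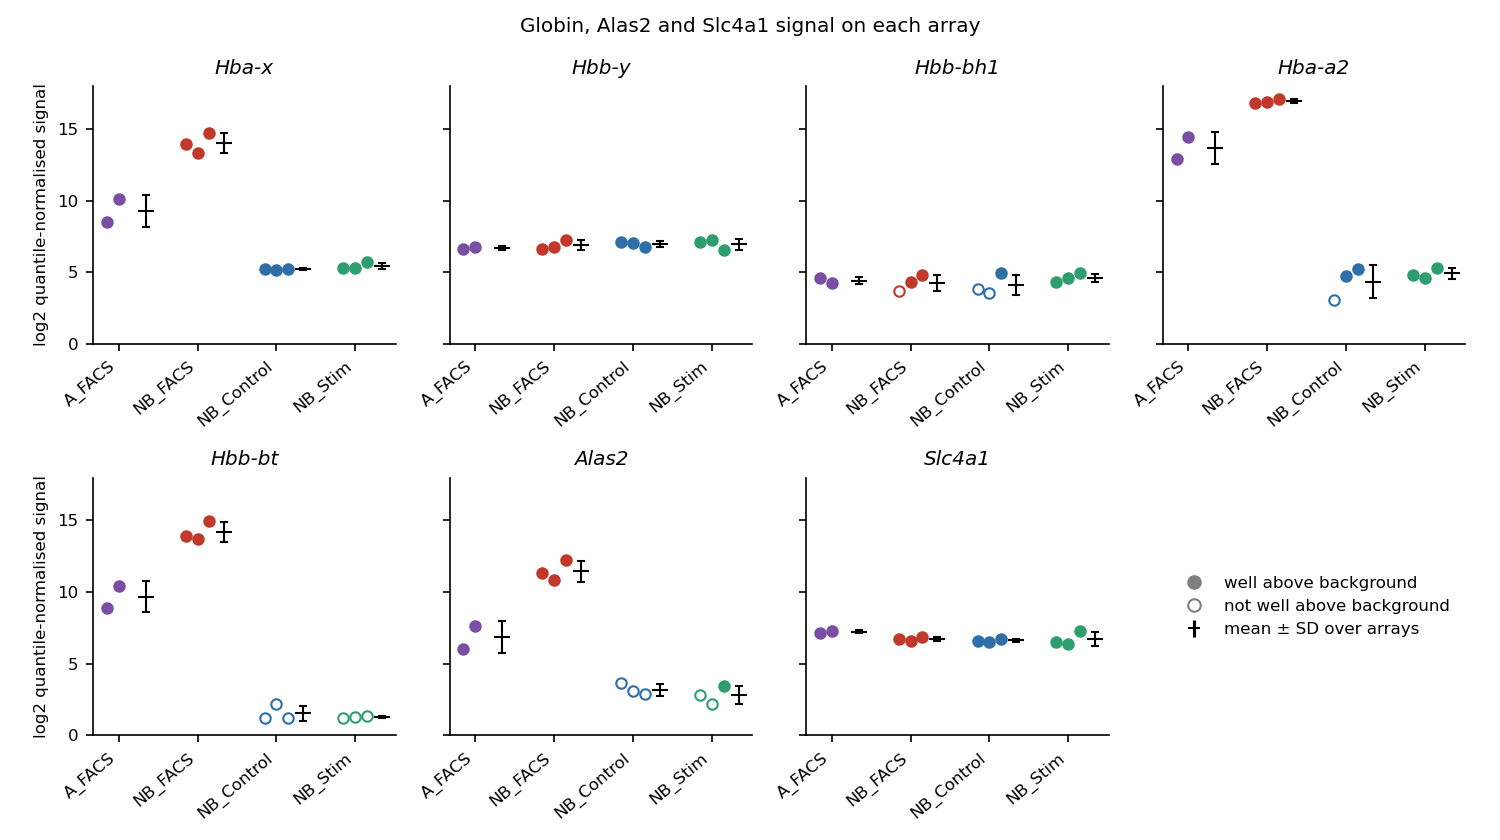
Log2 quantile-normalised signal (vertical axis, arbitrary units) of the 7 genes on each of the 11 arrays by group. Filled points were well above background, open points were not, and bars give the mean ± SD. Hba-x, Hba-a2, Hbb-bt and Alas2 are highest in NB_FACS, intermediate in A_FACS and lowest in both cultured groups, while Hbb-y, Hbb-bh1 and Slc4a1 stay within about the same range in all 4 groups.

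**Figure D2:**
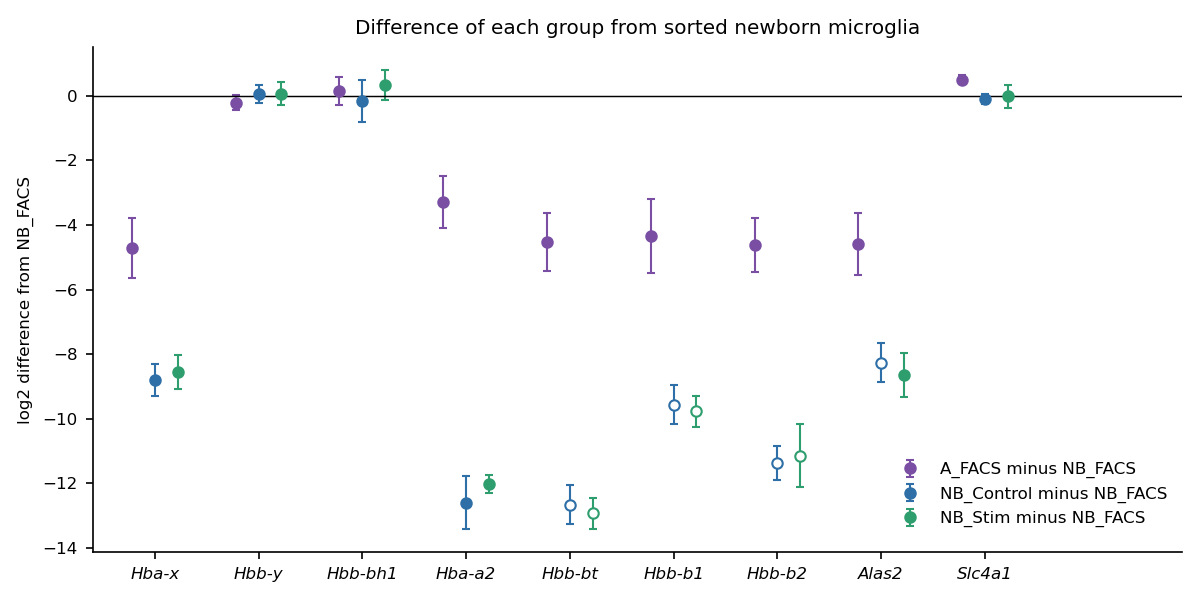
Log2 difference (vertical axis) of A_FACS, NB_Control and NB_Stim from NB_FACS for the 7 genes and for Hbb-b1 and Hbb-b2. Bars give the SD within groups, the root of the mean of both groups' variances, and open points mark groups with no array well above background, whose differences are measured values and not bounds. The points of Hbb-y, Hbb-bh1 and Slc4a1 lie between -0.21 and 0.50, and those of the other genes at or below -3.29.

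The Hba-x probe followed the order of groups seen for the adult globins, and the difference to Hbb-bt on the same array was used to describe how closely. Whether Hba-a1 RNA, or RNA of another globin, contributed to the Hba-x signal was not tested. Over the 5 sorted arrays Hbb-bt itself spanned 6.05 on the log2 scale and Hba-x spanned 6.21. The log2 difference between them on an array ran from -0.43 to 0.05, a range of 0.47. The range was 0.27 for Alas2, 0.69 for Hbb-b1, 0.20 for Hbb-b2 and 1.89 for Hba-a2. For Hbb-y, Hbb-bh1 and Slc4a1 it was 5.40, 5.91 and 6.31, close to the span of Hbb-bt. On signals before normalisation the ranges were 0.45 for Hba-x, 0.32 for Alas2, 0.89 for Hbb-b1, 0.12 for Hbb-b2 and 1.98 for Hba-a2. Hba-x, Alas2, Hbb-b1 and Hbb-b2 thus kept a nearly fixed difference to Hbb-bt from the dimmer adult array to the brightest newborn array. For Hbb-b2, whose probe shares 48 of 49 aligned bases with that of Hbb-bt, the same RNA may have reached both probes. The log2 difference of Hba-a2 to Hbb-bt was 3.95 and 4.02 on the A_FACS arrays and ran from 2.13 to 3.21 on the NB_FACS arrays. Hba-a2 was among the brightest probes in NB_FACS, and the part of a signal ceiling was not tested. All 5 points share the same arrays and 2 groups, and the sameness of the differences carries no test.

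**Figure D3:**
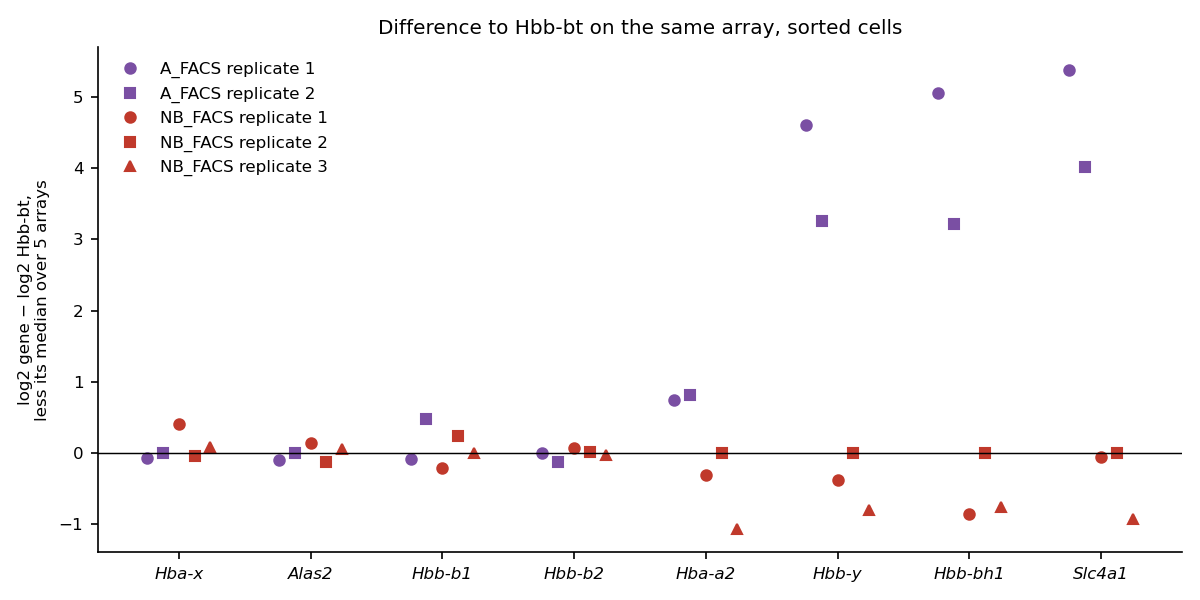
Log2 difference of 8 genes to Hbb-bt on the same array (vertical axis), less its median over the 5 sorted arrays, with 1 point per array. Points of Hba-x, Alas2, Hbb-b1 and Hbb-b2 lie within 0.5 of 0, those of Hba-a2 run from -1.07 in NB_FACS to 0.82 in A_FACS, and those of Hbb-y, Hbb-bh1 and Slc4a1 lie between 3.22 and 5.38 in A_FACS.

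Embryonic globins as a group were then set against adult globins, as the mean log2 signal of Hba-x, Hbb-y and Hbb-bh1 less that of Hba-a2 and Hbb-bt on each array. From NB_FACS to NB_Control the embryonic mean differed by -2.96 and the adult mean by -12.64, so that their difference was higher by 9.67. From NB_FACS to NB_Stim it was higher by 9.77, and from NB_FACS to A_FACS by 2.32, with an embryonic change of -1.59 and an adult change of -3.91. Between NB_Stim and NB_Control it differed by 0.10, less than the SD of 0.54 between arrays. Nearly all of the embryonic shift came from Hba-x. Without it the embryonic mean moved by -0.05 from NB_FACS to NB_Control and by -0.03 from NB_FACS to A_FACS, and the embryonic less adult difference by 12.59 and 3.88. The shifts to the cultured groups rest in part on Hbb-bt, which was not well above background on any cultured array, and were 6.90 for NB_Control and 6.91 for NB_Stim with normexp background correction. Within slide 1 the shift from NB_FACS to NB_Control was 9.76 and within slide 2 it was 9.50.

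Other globin genes on the array were tested with limma over all genes. The probes named for the adult β-globins Hbb-b1 and Hbb-b2 fell with that of Hbb-bt. Both passed the filter through the sorted groups alone, where they were bright. The Hbb-b2 probe is nearly the same as that of Hbb-bt, which carries no test. Hbb-b1 kept a nearly fixed difference to Hbb-bt on the sorted arrays. No adjusted p is therefore given for these 2 genes, and the list counts below are also given without them. Whether RNA of Hbb-bt or Hbb-bs gave the signal of these probes was not tested. Hbb-b1 read 10.66, 10.89 and 11.91 in NB_FACS, 5.78 and 7.85 in A_FACS and between 1.26 and 2.20 on the cultured arrays, where it was never well above background. NB_FACS was at least 223-fold higher than NB_Control and at least 212-fold higher than NB_Stim, and A_FACS lay 4.34 below NB_FACS (SE 0.57). For Hbb-b2 the bounds were 850-fold and 808-fold, and the log2 difference of A_FACS from NB_FACS was -4.61 (SE 0.67). With normexp background correction the log2 differences of Hbb-b1 and Hbb-b2 between NB_Control and NB_FACS were -5.23 and -7.19, smaller than the bounds. The θ-globin genes Hbq1a and Hbq1b did not pass in any of the 4 comparisons, with log2 differences from NB_FACS between -0.65 and 0.31. Hbb-bh2 was not well above background on any array. Of the globins that serve other tissues, Cygb (cytoglobin) lay between 7.88 and 7.99 in all 4 groups. Mb (myoglobin) was 6.26 ± 0.30 in NB_FACS and 5.52 ± 0.37 in NB_Control, a log2 difference of -0.74 (adjusted p 0.034), and passed in no other comparison, while Ngb had no matched probe.

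A wider list of 74 erythroid genes in 6 sub-lists was examined in the same fit to see whether genes beyond the globins moved. Of these 64 had a matched probe and 61 were tested. In NB_Control 8 of 61 fell and 8 rose relative to NB_FACS, against 13.9% of all genes that were called lower and 15.8% called higher. The list's median log2 difference was 0.12, against 0.09 for all genes tested. Without Hbb-b1 and Hbb-b2, 6 of 59 fell and 8 rose. The share of the list that was called, 26.2%, thus lay near that of all genes, and outside the globins the largest log2 difference among called genes was 2.34, of Blvrb.

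Among red cell membrane genes 1 of 18 fell in NB_Control and 1 rose. Gypc, the glycophorin C gene, rose by 1.99 (SE 0.46, adjusted p 0.00903), and the tetraspanin gene Tspan33 fell by 1.21 (SE 0.15, adjusted p 0.000284). Rhag (the Rh-associated glycoprotein), named after its value was seen as were Klf1 and Gata1, differed by 0.05 (SE 0.17) and did not pass. Among the red cell enzymes 1 of 8 fell and 2 rose. Blvrb, a biliverdin reductase, rose by 2.34 (adjusted p 8.25e-05), Mgst3 rose by 0.98 and Gmpr fell by 1.36.

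Of 13 genes of haem synthesis and iron supply other than Alas2, none fell and 2 rose in NB_Control. Steap3, the ferrireductase of the transferrin cycle, rose by 1.10 (adjusted p 0.0033), and the mitochondrial transporter gene Abcb10 rose by 0.68 (adjusted p 0.0364). Alas1, which encodes the form of the Alas enzyme used outside red cells and was also named after its value was seen, was 13.22 in NB_FACS and 13.21 in NB_Control. Of 10 erythroid regulators 3 fell (Zfpm1 by 1.19, Ldb1 by 0.72 and Myb, which was not well above background in NB_Control and was at least 1.53-fold lower) and Gfi1b rose by 0.53. Myb passed the filter through NB_FACS alone, where it was dim (3.97 ± 0.52). Its lower calls in all comparisons with NB_FACS are therefore counted but not read as a result. Klf1 and Gata1, the main activators of red cell genes, lay at 7.71 ± 0.11 and 5.45 ± 0.81 in NB_FACS and at 7.83 ± 0.17 and 5.91 ± 0.34 in NB_Control. Of 8 genes of reticulocyte maturation 2 rose, Bnip3l (a mitophagy receptor) by 1.23 and Mkrn1 by 1.03.

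NB_Stim gave much the same counts against NB_FACS, with 10 of 61 lower and 9 higher, where 15.1% of all genes were called lower and 16.0% higher. Without Hbb-b1 and Hbb-b2, 8 of 59 fell and 9 rose. Besides Hbb-b1 and Hbb-b2 the genes that fell included Aqp1, the water channel of the red cell membrane, by 3.80 (adjusted p 0.0212), Tspan33 by 1.64, Myb by 1.25, Epor (the erythropoietin receptor) by 1.15, Slc11a2 (an iron importer) by 1.12, Gmpr by 0.94 and Zfpm1 by 0.73. The genes that rose were Slc25a37 (mitoferrin) by 1.69, Bnip3l by 1.57, Blvrb by 1.41, Ypel4 by 0.95, Sox6 by 0.69, Mkrn1 by 0.68, Mgst3 by 0.60, Gfi1b by 0.48 and Dmtn by 0.38. Myb was well above background on 1 of 3 NB_Stim arrays, and Aqp1 and Epor on 2 of 3. With slide as a block 13 were lower and 16 higher.

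Directly between NB_Stim and NB_Control, 1 of the 61 genes rose, Slc25a37, by 1.35 (SE 0.31, adjusted p 0.0461), and 0 fell, while 14 had an unadjusted p under 0.05. Of all genes 2.00% were called lower and 1.40% higher. Over the alternatives the adjusted p of Slc25a37 ran from 0.00474 to 0.699, and 10 of 22 kept the call. Without A_FACS replicate 1, and likewise without A_FACS replicate 2, 1 gene of the list was called lower and 0 higher. With replicate number as a block 2 genes passed: Slc25a37 (adjusted p 0.00948) and Aqp1, which was lower by 4.40 (adjusted p 0.00173). Aqp1 read 8.37, 7.75 and 10.36 in NB_Control and 4.23, 3.92 and 5.11 in NB_Stim, with no overlap.

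Between adult and newborn sorted cells, 14 of 59 genes fell and 7 rose in A_FACS without Hbb-b1 and Hbb-b2. With them 16 of the 61 genes fell and 7 rose, against 12.9% of all genes called lower and 9.76% called higher. The median log2 difference of the 61 was -0.24 against -0.01 for all genes. Without A_FACS replicate 1 the counts were 11 lower and 1 higher, and without A_FACS replicate 2 they were 14 and 2. Add2 (β-adducin of the membrane skeleton) fell by 4.99 (SE 0.74, adjusted p 0.00127), with 1 of 2 adult arrays well above background, and Gypc, Tspan33 and Ypel4 fell by 2.57, 1.05 and 1.20. Epor was not well above background in A_FACS and was at least 4.31-fold lower (adjusted p 2.62e-05), and Myb at least 1.65-fold lower. Among enzymes Mgst3, Bpgm (which makes the haemoglobin effector bisphosphoglycerate) and Blvrb fell by 1.45, 1.28 and 0.86, and Isg20 rose by 0.94. In haem synthesis and iron supply Steap3 fell by 1.65, whereas Slc25a37 and Cpox rose by 1.86 and 0.93. Sox6 fell by 1.13, while Hemgn and Xk rose by 1.15 and 0.57. Urod fell by 0.65, and Slc25a38 and Zfpm1 rose by 0.87 and 0.69.

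**Figure D4:**
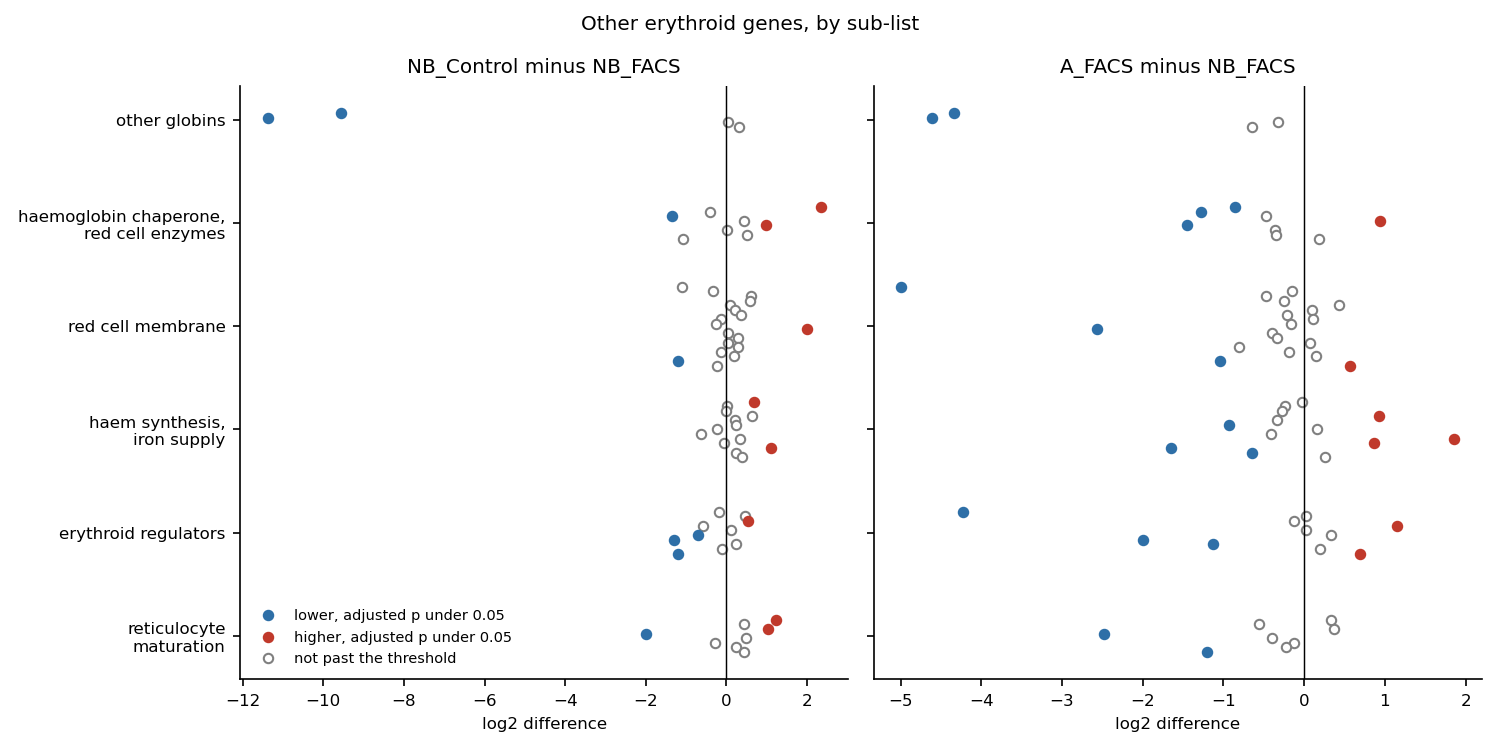
Log2 differences (horizontal axes, with different scales) of the 61 tested genes of the wider erythroid list, by sub-list, in NB_Control (left) and A_FACS (right) relative to NB_FACS. Blue points were lower and red points higher at an adjusted p under 0.05, and open points did not pass. The 2 points at or below -9.57 on the left are Hbb-b1 and Hbb-b2, and the lowest point on the right is Add2.

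Genes that handle haemoglobin and haem in macrophages were listed as well. Of 7 such genes 5 rose and 1 fell in NB_Control relative to NB_FACS, where 15.8% of all genes were called higher and 13.9% lower. Slc48a1, a haem transporter of the lysosome, rose by 3.44 (14.77 ± 0.11 against 11.32 ± 0.060), Spic, a regulator of iron-recycling macrophages, by 1.84, Slc40a1 (ferroportin) by 1.43, Hmox1 (haem oxygenase 1) by 1.26 and Blvra by 1.18. Cd163, the haemoglobin scavenger receptor, fell by 3.07 and was well above background on 1 of 3 NB_Control arrays. Its probe passed the filter through NB_FACS alone. Lrp1, the haemopexin receptor, differed by 0.08. With cytokines 4 of the 7 fell relative to NB_Control, against 2.00% of all genes: Slc40a1 by 2.35, Blvra by 1.11, Slc48a1 by 0.93 and Spic, which was not well above background in NB_Stim and was at least 5.55-fold lower. In NB_Stim relative to NB_FACS 1 rose (Slc48a1) and 1 fell (Cd163), and in A_FACS 2 fell, Blvra by 0.87 and Slc48a1 by 0.63.

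Markers of other cell types also differed between the groups. The microglial markers had 7 of 7 genes with a probe well above background on every array, as were most probes of the arrays, and Tmem119 was 16.22 in A_FACS, 14.04 in NB_FACS, 10.36 in NB_Control and 13.26 in NB_Stim and P2ry12 was 14.17, 12.95, 6.51 and 7.54. Of 8 proliferation genes all 8 fell relative to NB_FACS in NB_Control, NB_Stim and A_FACS, against 13.9%, 15.1% and 12.9% of all genes, with Mki67 at 11.30 in NB_FACS and between 6.45 and 6.87 elsewhere and Top2a at 12.85 and between 8.24 and 9.09. The summed signal of 9 endothelial markers was 4979 to 6763 in NB_FACS, 6548 to 13172 in A_FACS, 1033 to 1147 in NB_Control and 2094 to 2474 in NB_Stim. The log2 differences of Cldn5 and Pecam1 between NB_Control and NB_FACS were -7.22 and -2.08 (adjusted p 1.59e-06 and 0.0164), and neither gene passed between A_FACS and NB_FACS. Of the 9 endothelial genes 6 fell in NB_Control, 6 fell and 1 rose in NB_Stim, and 0 fell and 2 rose in A_FACS. Named after their values were seen, Flt1 rose by 1.69 in A_FACS and by 1.41 in NB_Stim, and Ly6c1 rose by 2.24 in A_FACS. Of the platelet markers 8 had a probe, with sums of 1957 to 3172 in NB_FACS, 1035 to 1115 in A_FACS, 15831 to 60002 in NB_Control and 12911 to 27942 in NB_Stim. Pf4 rose by 4.71 and Ppbp by 6.02 in NB_Control, the opposite direction to the globins, while Gp9, named after its value was seen, fell by 1.98. Ppbp was well above background on 1 of 3 NB_FACS arrays, at 1.98 ± 1.40 in NB_FACS and 8.00 ± 2.22 in NB_Control. In A_FACS Pf4 fell by 4.20 and Gp9 rose by 1.90. The 9 neutrophil markers, with S100a8 and Ngp listed first, summed to 708, 662 and 6015 on NB_FACS replicates 1, 2 and 3, the last on slide 2. In A_FACS they summed to 753 to 1360. Of the 9, 0 passed in any comparison, with an unadjusted p under 0.05 for 1 gene in A_FACS and for 0 genes in the other comparisons. The 9 lymphocyte markers with a probe summed to 2941 to 3578 in NB_FACS, 1114 to 1170 in A_FACS and 364 to 441 in culture, but Cd3e rose by 0.53 in NB_Control and by 0.71 in NB_Stim, and Cd3d was 3.88 ± 0.60 in NB_FACS and 3.74 ± 0.26 in NB_Control. Of the 7 lymphocyte genes tested Cd79b was the 1 that fell in NB_Control, NB_Stim and A_FACS, and it was named after its values were seen. Within the erythroid lists themselves Lmo2 and Hbb-bh2 were not well above background on any array. The part of these cell types in the globin differences was not tested.

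Genes with the pattern most like the 7 were sought among 2672 genes whose group means spanned at least 2 on the log2 scale, by Pearson's r over 11 arrays with the mean of the standardised values of the 7. The 10 highest were Cks2 (r = 0.956), Hmgn2 (0.954), H1f4 (0.948), Jdp2, Slc12a2, Btg1c, Hbb-b1 (0.932), Fam47e, Cish and Mia (0.932). Because 3 of the 7 varied little between groups, Hbb-bt alone was used as well, a choice made after the values were seen. Its closest genes were Cish (0.995), Hbb-b2 (0.992), Hbb-b1 (0.992), Sdk1 (0.990) and Cryba4 (0.990). The arrays fall into separate groups, so these values rank likeness between groups and describe no relation within one. Cish, the closest gene, differed far less between groups than Hbb-bt did, with means of 8.98 in NB_FACS, 8.29 in A_FACS, 6.54 in NB_Control and 6.52 in NB_Stim.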

How the data were processed

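Total RNA of microglia was hybridised to 11 single-colour arrays. The authors deposited scanner intensity files made with Agilent Feature Extraction 11 per the labels (background-subtracted signal per spot, with flags) and an intensity table whose 62927 entries did not differ from them (relative tolerance 1e-05). Spots with an outlier flag were left out, repeated spots averaged and 59899 probes quantile normalised on the log2 scale, computed here from the deposited intensity, as the study's methods name. A RefSeq table (GRCm38.p6) gave 36190 probes (60.4%) a symbol. Probes above background (the scanner's flag) throughout 1 or more groups were kept and averaged per gene.

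The 7 genes, the gene lists and the tests were chosen with earlier results of these data known. The 7 genes carry no test. Other genes were fitted with limma 3.58.1 (R 4.3.3), 1 mean per group over 11 arrays, with the Benjamini-Hochberg method over 19565 genes, and called at an adjusted p under 0.05. In the text "rose" and "fell" are used of called genes. On simulated data with the same arrays the fit recovered 84% of genes changed by 2 on the log2 scale and 47% of those changed by 1 between NB_Control and NB_FACS. The simulation drew independent noise for each array and changed 100 genes by each amount. In the data many more genes were called and arrays with the same replicate number correlated, so these rates may not hold there.

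Deviations from the group means of newborn arrays with the same replicate number correlated at 0.112 to 0.489 in all 9 pairs. Arrays with unlike numbers were not compared, and replicate 3 of each newborn group lay on slide 2. These correlations therefore cannot tell a pairing of the arrays from a difference between slides. A fit with the number as a block was run as an alternative. Named genes were the 7, up to 4 called genes per sub-list and comparison with the largest difference, the tissue globins, the haemoglobin uptake list, the first 2 tested genes of each cell type list and the 10 most alike genes. Some genes that the rule names are counted with their lists but not reported here. Alternatives were 75th percentile scaling, normexp (offset 50) with quantile normalisation, the deposited table, other filters, the brightest probe, outlier spots kept, slide or replicate blocks, only the groups compared, one-way ANOVA with Tukey's post-hoc test as in the study, and each array left out. Figures were drawn with matplotlib 3.10.9.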

Additional observations from a re-analysis of the deposited data

How the results depend on the processing

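The log2 differences of Hba-x, Hba-a2, Hbb-bt and Alas2 from NB_FACS kept their direction under every alternative run, in NB_Control, NB_Stim and A_FACS. The count of the 7 genes whose groups did not overlap was 1 in NB_Control and in NB_Stim and 2 in A_FACS when probes had to be well above background on every array, which kept 3 of the 7. Leaving out single arrays gave 4 to 4 genes for NB_Control, 4 to 5 for NB_Stim, 5 to 6 for A_FACS and 1 to 3 between NB_Stim and NB_Control. The embryonic less adult shift from NB_FACS was 6.90 for NB_Control and 6.91 for NB_Stim with normexp, and 9.51 for NB_Stim within slide 2. Without Hba-x, an alternative added after the data were seen, it was 12.59, 12.69 and 3.88 for NB_Control, NB_Stim and A_FACS. Without single arrays it ran from 9.27 to 10.02, from 9.69 to 9.84, from 1.76 to 2.85 and, between NB_Stim and NB_Control, from -0.25 to 0.50. Without single arrays the called genes of the wider list numbered 12 to 21 for NB_Control, 13 to 22 for NB_Stim, 12 to 23 for A_FACS (lowest without A_FACS replicate 1) and 0 to 1 between NB_Stim and NB_Control, where a group left with 1 array was assumed to vary like the others. Tukey's test called 11 for A_FACS, 8 for NB_Stim and 0 between NB_Stim and NB_Control, and slide as a block called 29 for NB_Stim. Between NB_Stim and NB_Control the count was 4 with 75th percentile scaling or slide as a block, 2 with normexp, with probes well above background on every array and with the replicate block, and 0 with no filter. The replicate block gave 20 calls for NB_Control and 25 for NB_Stim, within 1.5 times the counts without it. Each of the 55 named calls kept its sign, and 26 kept their call, under every alternative run. Bounds set by dim cultured arrays limit the folds of Hbb-bt and Alas2. The fit with the replicate number as a block covers the newborn groups and not A_FACS.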
